A study of Mus musculus with 8 samples.

Results

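The genes described here are the 137 protein-coding genes of mouse chromosome 6 that had a count of 2000 or more in all 8 libraries of the series, out of 52550 genes in the files. They were chosen by measured values, the counts themselves, and by their place on a chromosome already known from these data to have more RNA in Dax1KO embryonic stem cells (ESCs). Of the 1094 protein-coding genes of the chromosome, 146 reached the minimum, and 9 of these were among 17 genes set aside by name, for the most part pluripotency, glycolytic, cell cycle and imprinted genes. The question was which of the 137 genes followed a rise of about 1.4 to 1.5-fold in Dax1KO ESCs and which stayed below it or went beyond it, in each medium. Because the chromosome was picked for its shift, the size of that shift is given as a description without a test.

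The libraries were control ESCs and Dax1KO ESCs, each in 2 media with 2 replicates per group, all at passage 3 on gelatin. The 2i/LIF medium was N2B27 with 1 μM PD0325901, an inhibitor of MEK, 3 μM CHIR99021, an inhibitor of GSK3, and 10 ng/ml LIF, a cytokine that maintains ESCs. The LIF/serum medium had 15% FBS and 10 ng/ml LIF and neither inhibitor. Per the study's methods, Dax1KO ESCs were made in 2i/LIF with a lentivirus carrying Cas9 and a guide against Dax1, with zeocin as the selection, functional work used a single colony, and cells for LIF/serum were moved there from 2i/LIF. The labels do not name the colony. Dax1, whose symbol is Nr0b1, is an orphan nuclear receptor that acts mainly as a repressor in ESCs. Its count was 456 and 300 in control ESCs in 2i/LIF and 0 in both Dax1KO libraries there. In LIF/serum it was 5095 and 4689 in control ESCs against 14 and 6 in Dax1KO ESCs, so the target gene matched the label of every library.

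Cells with a surplus chromosome usually make more RNA from its genes, roughly in step with the number of copies. Genes whose RNA rises less than the copy number are called buffered, and feedback on transcription, RNA decay and limits set by partner proteins are known routes to it. ESC lines in culture are known to gain chromosomes, and a line grown from a single colony carries whatever its founder cell had. The genomic DNA of these cells was not measured here, so a change of copy number, other differences of the clone and an effect of losing Dax1 cannot be told apart. The words below and above are therefore used only for the position of a gene's RNA against the 1.4 to 1.5-fold band.

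The library totals lay between 35911384 and 37286251 counts. All 6 ESC markers examined, Pou5f1 and Sox2 among them, were detected in each group, and their sum was lower in Dax1KO ESCs in 2i/LIF, at 2813 to 2954 CPM (counts scaled to the library total) against 3047 to 3190, and overlapped in LIF/serum, at 4510 to 4910 against 3909 to 4562. The summed level of 8 primitive endoderm markers, none of them at 0, moved with the comparison in LIF/serum, from 397 to 680 CPM in control ESCs to 1373 to 1713 in Dax1KO ESCs. In 2i/LIF the groups overlapped, at 126 to 144 and 97.5 to 128 CPM. The sum of 7 trophectoderm markers was 46.6 to 61.3 CPM in control ESCs and 105 to 110 in Dax1KO ESCs in 2i/LIF, with Cdx2 at 0, and 69.2 to 69.8 against 116 to 135 in LIF/serum. The sum of 5 fibroblast markers was 51.0 to 63.2 against 33.9 to 36.4 CPM in 2i/LIF and 12.02 to 12.61 against 39.7 to 42.2 in LIF/serum, where Lum and Col3a1 were at 0. The sum of 4 markers of cells like the two-cell embryo was 6.73 to 12.3 against 0.724 to 0.810 CPM in 2i/LIF and 161 to 214 against 148 to 160 in LIF/serum. The part of these markers in the values below was not tested. In such bulk libraries, fewer cells of a type and less RNA per cell cannot be told apart. The labels do not say whether replicates were separate cultures, so p-values measure only the spread between these libraries.

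The 137 genes together took 2.63% and 2.69% of all counts in control ESCs in 2i/LIF and 3.67% and 3.70% in Dax1KO ESCs. In LIF/serum their share was 2.78% and 2.71% in control ESCs and 3.91% and 3.93% in Dax1KO ESCs. The Dax1KO libraries lay above the control libraries in both media without overlap, and the ratio of the mean shares was 1.39 in 2i/LIF and 1.43 in LIF/serum. The median change of the genes from control to Dax1KO ESCs, in log2 units, was 0.47 in 2i/LIF and 0.44 for LIF/serum, or folds of 1.38 and 1.36. The 2800 protein-coding genes of other chromosomes with the same count minimum had medians of -0.05 and -0.13. Relative to those genes the medians were 0.52 and 0.57, or folds of 1.44 and 1.49, inside the band of 1.4 to 1.5-fold, which is 0.49 to 0.58 on the log2 scale. The log2 fold changes printed hereafter are relative to TMM scaling over all genes tested, not to this second reference.

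The scatter of the genes around their median was close to the scatter of the comparison genes around theirs. The scaled median absolute deviation of the log2 fold changes was 0.19 for both sets in 2i/LIF and 0.32 against 0.31 in LIF/serum. In 2i/LIF 133 of the 137 log2 fold changes were above 0, with quartiles at 0.34 and 0.59. In LIF/serum 123 were above 0, and the quartiles were 0.20 and 0.64. By the estimate alone, 27 genes in 2i/LIF and 17 in LIF/serum lay within 1.4 to 1.5-fold, 74 genes lay under it in each medium, and 36 and 46 lay over it.

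**Figure D1:**
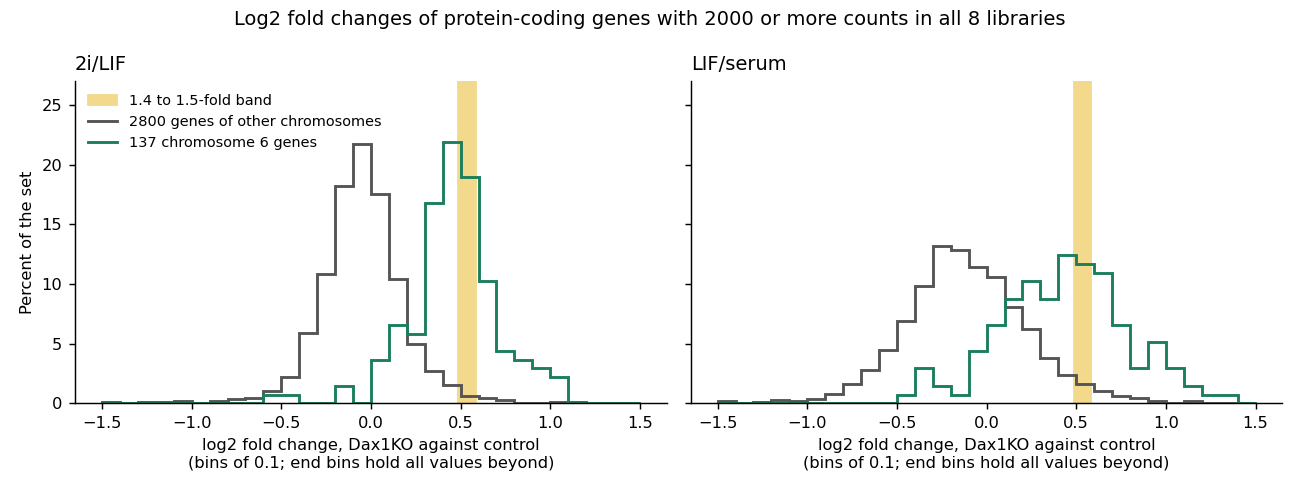
Distribution of log2 fold changes, Dax1KO against control, in bins of 0.1 (x axis) as percent of each set (y axis), for the 137 chromosome 6 genes and for 2800 protein-coding genes of other chromosomes with the same count minimum, in each medium. The chromosome 6 genes form a peak of much the same width moved to the right, with medians of 0.47 and 0.44 against -0.05 and -0.13.

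In 2i/LIF, 33 of the 137 genes rose past the threshold (fold of at least 1.2 and p of at most 0.05 in the quasi-likelihood test of edgeR, adjusted by Benjamini-Hochberg over all genes) and 1, Bcat1, fell, while over all 20749 genes tested 1.51% rose and 1.65% fell. In LIF/serum 66 rose and 0 fell, with 8.87% and 5.78% as the corresponding shares of all genes. For the 2800 comparison genes of other chromosomes, 0.43% rose and 1.46% fell in 2i/LIF, and 4.11% and 12.2% in LIF/serum. At an unadjusted p of 0.05, 110 genes were higher and 2 lower in 2i/LIF, and 89 were higher and 4 lower in LIF/serum. DESeq2 called 71 higher and 2 lower in 2i/LIF, and 73 and 2 in LIF/serum. Both Dax1KO libraries lay above both control libraries for 127 genes in 2i/LIF, where this held for 25% of all genes, and for 103 in LIF/serum, against 30.3%. The comparison genes had 18.7% and 19.0%. The calls depended on single libraries. Without any 1 of the 4 libraries in 2i/LIF, 0 or 1 gene was called there by edgeR, although 79 to 93 were higher and 2 lower at an unadjusted p of 0.05, and without Dax1KO replicate 1 or 2 of LIF/serum 10 and 9 were called in 2i/LIF. In LIF/serum the count was 21 without Dax1KO replicate 2, 34 without Dax1KO replicate 1 and 38 without control replicate 2.

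A gene was placed below the band when the whole 95% interval of its fold change lay under 1.4-fold, and above it when the whole interval lay over 1.5-fold. In 2i/LIF 17 genes were below, 4 were above and 116 could not be told from the band. In LIF/serum 35 were below, 14 above and 88 not told. Among all genes tested, 42.1% were below and 1.14% above in 2i/LIF, and 40% and 3.88% in LIF/serum. For the 2800 comparison genes the shares were 83.0% and 0.14% in 2i/LIF, and 80.2% and 0.46% in LIF/serum. A second yardstick was the set of 2800 genes of other chromosomes, read against a band moved down by the median shift of 0.52 or 0.57: 7.82% of them were below it and 2.93% above in 2i/LIF, where the chromosome 6 genes had 12.4% and 2.92%. In LIF/serum these shares were 17.9% and 8.64% for the other genes and 25.5% and 10.2% for the chromosome 6 genes, and the difference between the gene sets was not tested. The median interval was 0.59 wide against a band of 0.10, so for most genes 2 libraries per group did not decide the question. With the fold changes centred on the other chromosomes, an alternative added after the values were seen, 11 genes were below and 8 above in 2i/LIF, and 15 and 22 in LIF/serum. Leaving out single libraries gave 7 to 19 genes below and 1 to 8 above in 2i/LIF. The counts below were 7 without Dax1KO replicate 2, 9 without control replicate 2 and 11 without either of the other 2i/LIF libraries, and those above were 1 without Dax1KO replicate 1 and 7 or 8 without a control library of LIF/serum. In LIF/serum 19 to 35 were below and 5 to 19 above, with 19 and 5 without Dax1KO replicate 2.

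**Figure D2:**
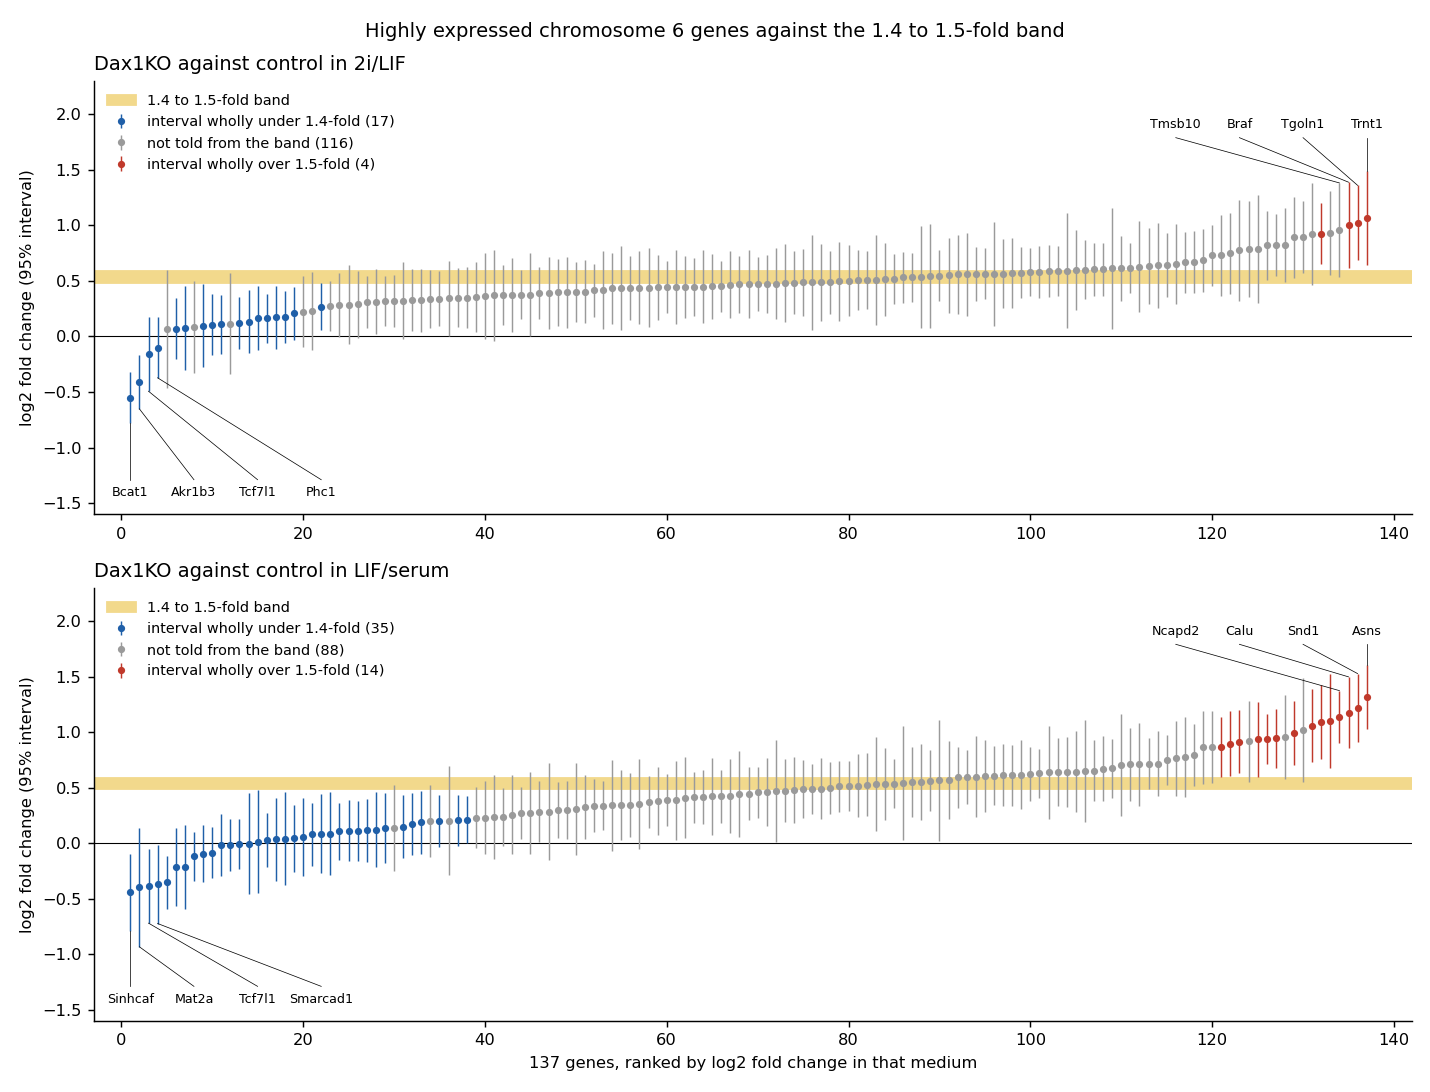
Log2 fold change of each of the 137 genes with its 95% interval (y axis), ranked within each medium (x axis), with the 1.4 to 1.5-fold band shaded. Most intervals cross the band, 17 lie wholly under it and 4 over it in 2i/LIF, and 35 and 14 in LIF/serum.

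Below the band in both media were 9 genes, Tcf7l1, Chd4, Akr1b3, Hnrnpa2b1, Trim24, Pcbp1, Sec13, Serbp1 and Fkbp4. Of these, 3 kept that place in both media with centring on other chromosomes, with DESeq2 and without each of the 8 libraries in turn, namely Tcf7l1, Chd4 and Akr1b3.

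Tcf7l1 (ENSMUSG00000055799.13, chr6:72626378-72789254, minus strand, GRCm38) encodes the T-cell factor that holds down Wnt target genes in ESCs until β-catenin displaces it. Its normalized counts were 4073 and 4005 in control ESCs and 3343 and 3887 in Dax1KO ESCs in 2i/LIF. In LIF/serum they were 3291 and 3050 against 2721 and 2129. Dax1KO ESCs were thus the lower group in both media without overlap, at log2 fold changes of -0.16 (95% interval -0.49 to 0.17) and -0.39 (-0.72 to -0.05), neither past the threshold with adjusted p of 0.655 and 0.114.

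Chd4 (ENSMUSG00000063870.12, chr6:125095981-125130591, plus strand) encodes the ATPase of the NuRD chromatin remodelling complex. Its normalized counts were 20472 and 21000 in control ESCs and 22170 and 22941 in Dax1KO ESCs in 2i/LIF, and 23441 and 22035 against 22424 and 20388 in LIF/serum. The groups overlapped in LIF/serum and all 8 values stayed between 20388 and 23441. The folds were 1.09 (0.927 to 1.28) and 0.941 (0.803 to 1.10).

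Akr1b3 (ENSMUSG00000001642.18, chr6:34302434-34317478, minus strand) encodes aldose reductase, which turns glucose into sorbitol. In 2i/LIF its normalized counts were 5967 and 5432 in control ESCs and 4309 and 4282 in Dax1KO ESCs. In LIF/serum the gene was higher in both genotypes, at 13838 and 15339 against 15235 and 14434. Its log2 fold change was -0.41 (-0.65 to -0.16, adjusted p = 0.0852) in 2i/LIF and 0.02 (-0.22 to 0.27) in LIF/serum. DESeq2 called it lower in 2i/LIF (adjusted p = 0.0221). The longest transcript of Akr1b3 matches a pseudogene, Gm38056, over 97.5% of its length, so its counts are uncertain.

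The remaining 6 of the 9 genes were near or a little above control. Hnrnpa2b1, which binds and helps to splice nuclear RNA, had a log2 fold change of 0.16 in 2i/LIF and one of -0.12 in LIF/serum. Pcbp1, which binds poly(C) stretches of mRNA, had 0.16 and 0.15, and Serbp1, an mRNA-binding protein of the ribosome, had 0.17 and 0.20. Sec13, a coat protein shared by secretory vesicles and the nuclear pore, had 0.13 and 0.19. Fkbp4, a partner of the chaperone Hsp90, had 0.27 and 0.21, and Trim24, a bromodomain cofactor that marks p53 for degradation, had 0.08 and 0.03. None of these was past the threshold in either medium, and for Pcbp1, Trim24 and Fkbp4 the place below the band was lost in both media with centring, for Sec13 and Serbp1 in LIF/serum.

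In 2i/LIF the band also lay above the intervals of Bcat1, Phc1, Cops7a, Mcm2, Pole4, Atf7ip, Thumpd3 and Paip2b. Bcat1, described with the differences between media, was at -0.55. Phc1, a subunit of Polycomb repressive complex 1, had normalized counts of 6248 and 6605 in control ESCs and 5789 and 6202 in Dax1KO ESCs, a log2 fold change of -0.10 (-0.37 to 0.17), and it kept this place without each library in turn. Mcm2, a subunit of the replicative helicase, was at 0.11, and Cops7a, a subunit of the COP9 signalosome, at 0.07. Paip2b, which binds poly(A)-binding protein and represses translation, was the 1 gene below the band in 2i/LIF and above it in LIF/serum. Its normalized counts were 7120 and 7890 in control ESCs and 7955 and 8956 in Dax1KO ESCs in 2i/LIF, and 4103 and 3557 against 7295 and 7944 in LIF/serum. Dax1KO was the higher group in both media without overlap, at log2 fold changes of 0.17 (adjusted p = 0.546) and 0.99 (adjusted p = 0.00395), and the difference of 0.82 did not pass the threshold in edgeR's test (adjusted p = 0.0518). It kept each place in 6 of the 8 fits without 1 library, but the place in 2i/LIF was lost with centring, as were those of Atf7ip and Thumpd3. Among the 8 lowest estimates in 2i/LIF, Mat2a at 0.07 and Smyd5 at 0.08 had intervals too wide to be told from the band with edgeR, while with DESeq2 Smyd5 was below it.

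In LIF/serum the lowest estimates were those of Sinhcaf, Mat2a, Tcf7l1, Smarcad1, Fam136a, Kdm3a, Cbx3 and Hnrnpa2b1. Sinhcaf, a subunit of the Sin3 histone deacetylase complex, had normalized counts of 10532 and 7756 in control ESCs and 6786 and 6674 in Dax1KO ESCs, a log2 fold change of -0.44 (-0.79 to -0.10, adjusted p = 0.0877). Mat2a, which makes the methyl donor S-adenosylmethionine, had 9117 and 6814 against 7478 and 4598, so its groups overlapped, at -0.40 (-0.93 to 0.13). Smarcad1, a chromatin remodeller, was at -0.37, Kdm3a, a demethylase of histone H3 lysine 9, at -0.21, and Cbx3, a heterochromatin protein, at -0.21. The corresponding values in 2i/LIF were 0.32 for Sinhcaf, 0.29 for Smarcad1, 0.23 for Kdm3a and 0.56 for Cbx3. None of these genes passed edgeR's threshold in LIF/serum with all libraries. DESeq2 called Sinhcaf and Fam136a lower there (adjusted p = 0.0441 and 0.0226), and edgeR called Sinhcaf and Smarcad1 lower without control replicate 2 of LIF/serum (adjusted p = 0.0258 and 0.0431). For Sinhcaf, Mat2a, Smarcad1, Kdm3a and Cbx3 the difference between media was not called by edgeR, with adjusted p between 0.105 and 0.499. Exons of Mat2a overlap Particl over 11.3% of their length, and whether the counting used strand is not given in the sources used here.

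Above the band in both media was 1 gene, Tgoln1 (ENSMUSG00000056429.4, chr6:72608432-72617000, minus strand), which encodes an integral protein of the trans-Golgi network. Its normalized counts were 3965 and 3577 in control ESCs and 8122 and 7212 in Dax1KO ESCs in 2i/LIF, and 2758 and 2148 against 4923 and 4454 in LIF/serum. The Dax1KO libraries were above the control libraries in both media, at folds of 2.03 (1.61 to 2.57, adjusted p = 0.0160) and 1.91 (1.51 to 2.42, adjusted p = 0.00799). Its place above the band was kept in 6 of the 8 fits without 1 library in 2i/LIF but in 1 of 8 in LIF/serum, and the predicted gene Gm20536 overlaps 8.1% of its exonic length.

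The other genes above the band in 2i/LIF were Trnt1, Braf and Fgfr1op2, which kept that place in 5, 3 and 6 of the 8 fits without 1 library. Trnt1, the enzyme that adds the CCA end to tRNAs, had normalized counts of 2053 and 2659 in control ESCs and 5075 and 4779 in Dax1KO ESCs. In LIF/serum it had 3244 and 3445 against 4008 and 2869, where the groups overlapped, and it was below the band there, at a log2 fold change of 0.04 after 1.06 in 2i/LIF. The difference of these effects, -1.02, did not pass the threshold in edgeR's test (adjusted p = 0.0842), and its place below the band was lost with centring and kept in 3 of the 8 fits without 1 library. Braf, a kinase that activates MEK, had 2468 and 2318 against 4374 and 5226 in 2i/LIF, a fold of 2.01 (1.54 to 2.62), and 1.36 in LIF/serum. Fgfr1op2 was at 1.90-fold in 2i/LIF and 1.57-fold in LIF/serum, past the threshold in both. Tmsb10, an actin-sequestering peptide that matches the gene Gm9844 over 59.9% of its transcript, Ergic2, a protein that cycles between endoplasmic reticulum and Golgi and whose exons overlap Far2 over 12.4% of their length, Alms1, a centrosome protein, and Rmnd5a, a subunit of a ubiquitin ligase, had log2 fold changes of 0.96, 0.93, 0.92 and 0.89 in 2i/LIF with intervals that reached the band. With centring Tmsb10, Ergic2 and Rmnd5a were above it.

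In LIF/serum the genes above the band were led by Asns at 1.32, Snd1 at 1.22, Calu at 1.18, Ncapd2 at 1.14, Mkrn1 at 1.10, Hibadh at 1.09 and Rnf181 at 1.06 on the log2 scale. Slc25a13, Ncapd2, Calu, Asns and Snd1 kept that place without each library in turn. Snd1, a nuclease-domain protein that binds RNA, had normalized counts of 6044 and 6098 in control ESCs and 14190 and 14036 in Dax1KO ESCs, a fold of 2.32 (1.88 to 2.88, adjusted p = 0.00262). Calu, a calcium-binding protein of the endoplasmic reticulum, had 8410 and 7384 against 15564 and 20104, a fold of 2.26 (1.81 to 2.82). Mkrn1, a ubiquitin ligase, had 21241 and 28345 against 46435 and 59835, and Hibadh, a mitochondrial enzyme of valine breakdown, had 3576 and 3614 against 6738 and 8568. In each of these genes the 2 groups were apart in both media. In 2i/LIF their log2 fold changes were 0.57 for Snd1, 0.40 for Calu, 0.49 for Mkrn1 and 0.51 for Hibadh. The differences between media of Snd1 and Calu, 0.65 and 0.78, were not called by edgeR (adjusted p = 0.118 and 0.0853). Plxna1, a receptor for semaphorins, was at 1.02, and its interval reached the band with edgeR but lay above it with centring and with DESeq2.

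**Figure D3:**
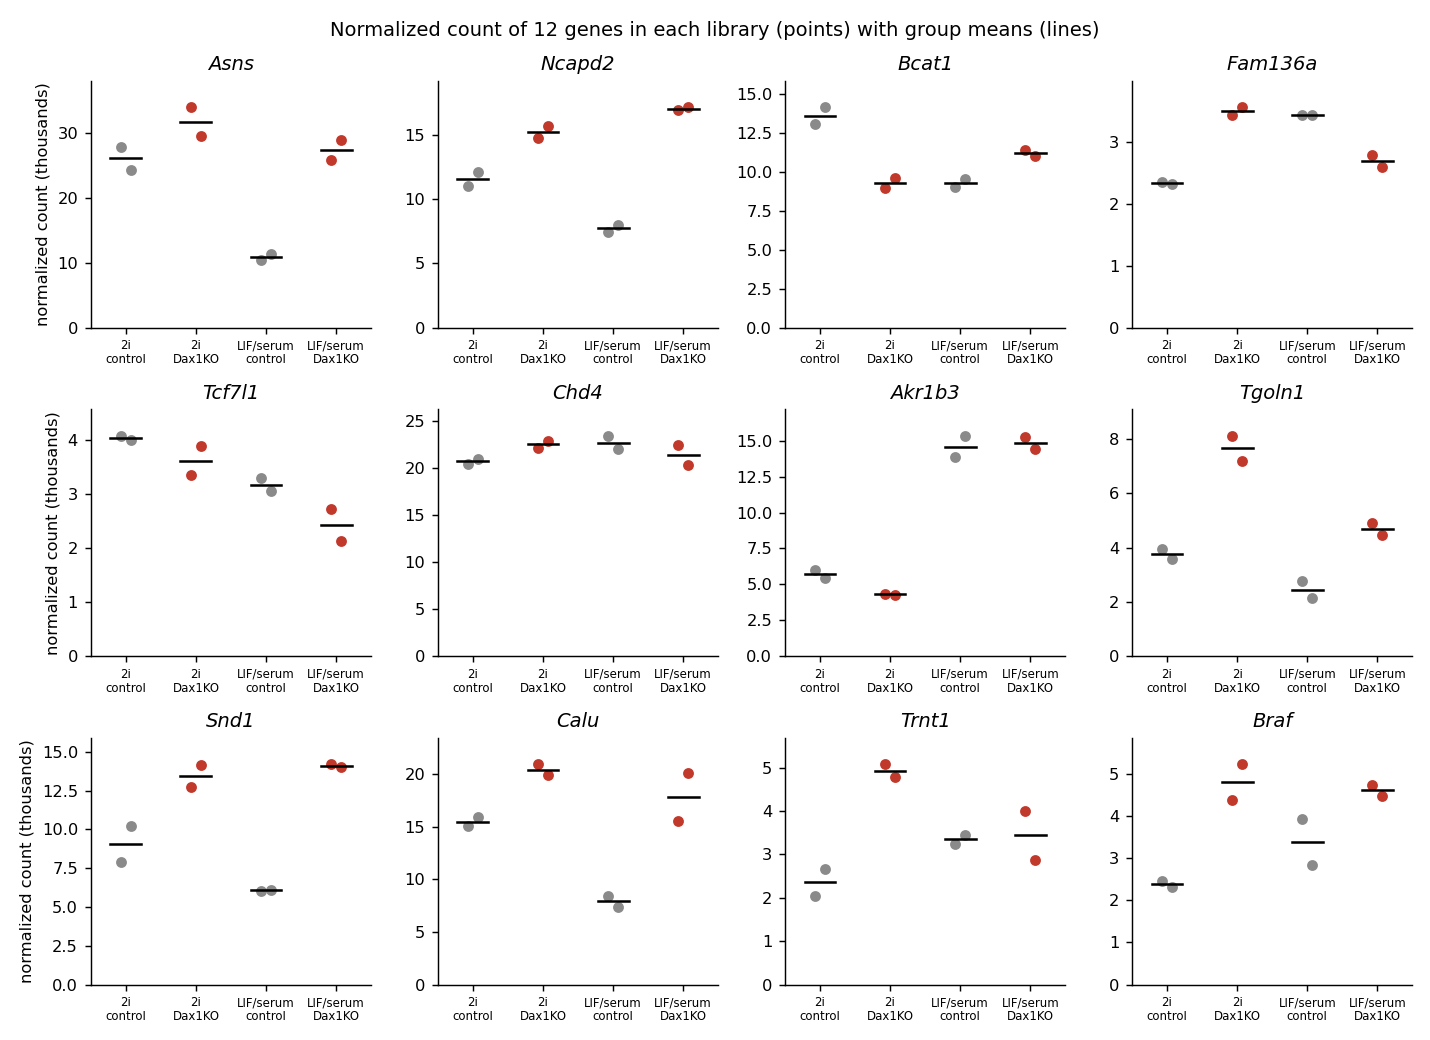
Normalized counts in units of 1000 (y axis, from 0) of 12 genes in each library (points, 2 per group) with the mean of each group (lines), for control and Dax1KO ESCs in both media. Chd4 stays level over the 4 groups and Tgoln1 is higher in Dax1KO ESCs in both media. For Asns, Ncapd2, Snd1 and Calu the groups are apart in both media, with the larger fold in LIF/serum.

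A gene's place in one medium was compared with its value in the other. The 2 comparisons share no library, but each gene's spread was estimated over all 8 libraries. Places and calls in the 2 media are therefore not independent of each other. The 17 genes below the band in 2i/LIF had a median of 0.21 on the log2 scale in LIF/serum, and 15 of them were under 1.4-fold there, against 0.44 and 54.0% for all 137 genes. The 35 genes below the band in LIF/serum had a median of 0.33 in 2i/LIF, and 29 were under 1.4-fold, where the median of all was 0.47. The 14 genes above the band in LIF/serum had a median of 0.50 in 2i/LIF, with 6 of them under 1.4-fold and 4 over 1.5-fold, where 36 of all 137 genes were over it. The 4 genes above the band in 2i/LIF had a median of 0.55 in LIF/serum. There 2 of them were under 1.4-fold and 2 over 1.5-fold, where 46 of all 137 genes were over it. Across the 137 genes the log2 fold changes in the 2 media had a Pearson correlation of 0.33 and a Spearman correlation of 0.39, near the 0.29 for both measures over the 2800 genes of other chromosomes. The points share their libraries within a medium and genes are not independent, so this is a description. Of the 33 genes that rose in 2i/LIF, 25 also rose in LIF/serum, which is 75.8% of the former and 37.9% of the 66 there, beside 48.2% of all 137 genes that rose in LIF/serum and 24.1% in 2i/LIF.

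**Figure D4:**
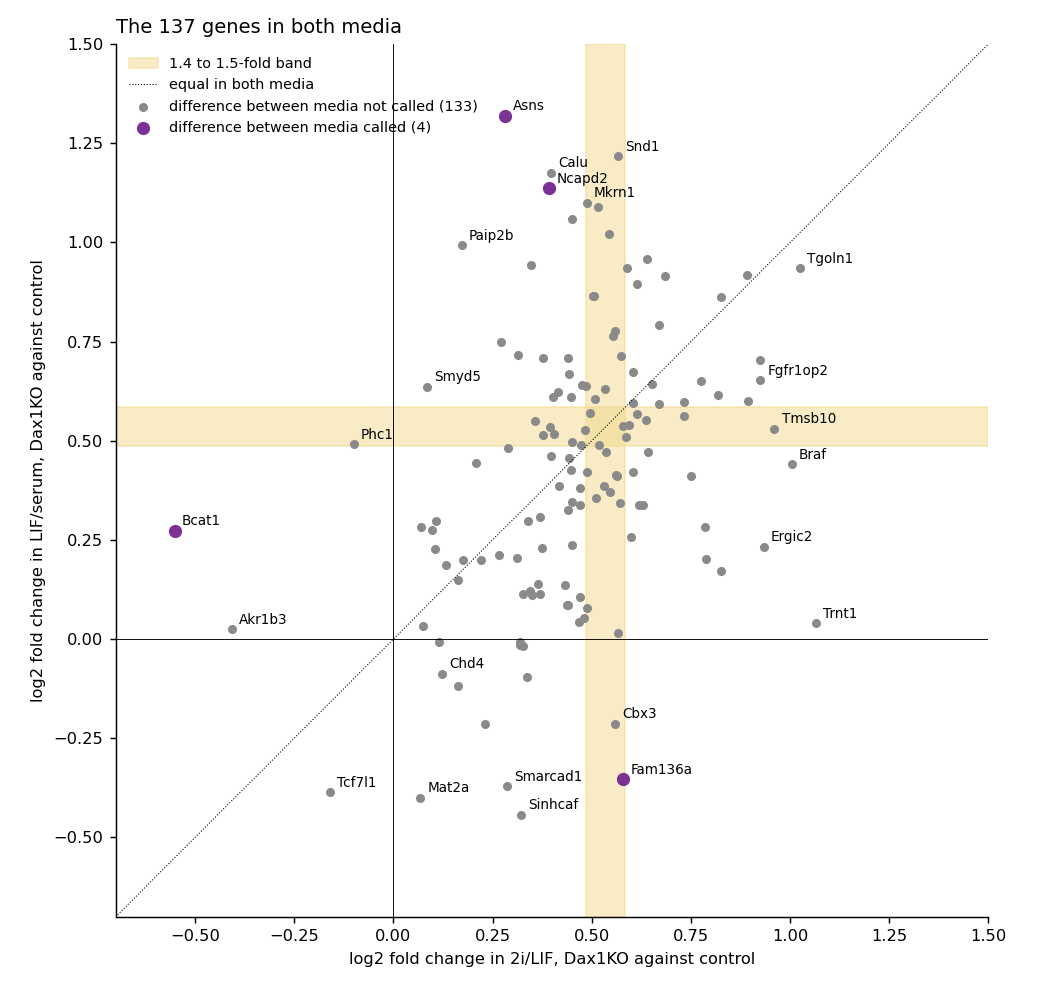
Log2 fold change of each of the 137 genes in 2i/LIF (x axis) and in LIF/serum (y axis), with the 1.4 to 1.5-fold band shaded on both axes and a dotted line of equal values. The 4 genes with a called difference between media, Asns, Ncapd2, Bcat1 and Fam136a, lie away from the line, and Tgoln1 lies high in both media.

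The effect of Dax1KO differed between the media for 4 of the 137 genes, Asns, Bcat1, Ncapd2 and Fam136a, a share near the 2.87% of all genes tested. Asns (ENSMUSG00000029752.12, chr6:7675169-7693254, minus strand) encodes asparagine synthetase, a known target of the amino acid response. Its normalized counts were 27803 and 24332 in control ESCs and 33928 and 29457 in Dax1KO ESCs in 2i/LIF. In LIF/serum they were 10492 and 11425 against 25771 and 28918, so control ESCs in LIF/serum stood apart as the lowest group. The fold was 1.22 (0.996 to 1.48) in 2i/LIF and 2.50 (2.04 to 3.05) in LIF/serum, and the log2 effects differed by 1.04 (SE 0.18, adjusted p = 0.0299).

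Ncapd2 (ENSMUSG00000038252.13, chr6:125168007-125191701, minus strand) encodes a subunit of condensin I, which compacts chromosomes in mitosis. It had normalized counts of 11004 and 12115 in control ESCs and 14711 and 15648 in Dax1KO ESCs in 2i/LIF, and 7466 and 8013 against 16922 and 17107 in LIF/serum. The fold went from 1.31 to 2.20, a difference of 0.74 in log2 (SE 0.15, adjusted p = 0.0417). Dax1KO was the higher group in both media.

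Bcat1 (ENSMUSG00000030268.17, chr6:144993835-145076184, minus strand) encodes the cytosolic transaminase of branched-chain amino acids. In 2i/LIF its normalized counts were 13080 and 14144 in control ESCs and 8969 and 9611 in Dax1KO ESCs, and in LIF/serum 9027 and 9530 against 11400 and 11029. Dax1KO was the lower group in 2i/LIF and the higher one in LIF/serum, each without overlap. The log2 fold changes were -0.55 (adjusted p = 0.0323) and 0.27 (adjusted p = 0.110), and they differed by 0.82 (SE 0.14, adjusted p = 0.0305).

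Fam136a (ENSMUSG00000057497.8, chr6:86365646-86370058, plus strand) showed the opposite order. It had 2357 and 2319 in control ESCs and 3430 and 3559 in Dax1KO ESCs in 2i/LIF, a log2 fold change of 0.58 (0.34 to 0.82, adjusted p = 0.0302). In LIF/serum the values were 3439 and 3438 against 2789 and 2597, -0.35 (-0.59 to -0.12, adjusted p = 0.0559). The difference of the log2 effects was -0.93 (SE 0.15, adjusted p = 0.0239). The calls of a difference depended on single libraries. Without any of the 4 libraries in 2i/LIF or of the 2 Dax1KO libraries in LIF/serum edgeR called 0 of the 137 genes, while 10 to 13 had a positive and 7 to 13 a negative difference at an unadjusted p of 0.05, and without control replicate 1 or 2 of LIF/serum 1 and 2 were called. With all libraries DESeq2 called 11 genes, Sinhcaf, Cbx3, Trnt1 and Paip2b among them (adjusted p = 0.0247, 0.0317, 0.00827 and 0.00413).

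The genes were also grouped by function, in lists chosen with earlier results of these data known. Over all 137 genes 24.1% rose in 2i/LIF and 48.2% in LIF/serum, and 12.4% and 25.5% were below the band. The counts of each list are a description to be read beside these shares, and neither the lists nor the media were tested against each other. The order of the media depended on the threshold: at an unadjusted p of 0.05 more genes were higher in 2i/LIF than in LIF/serum in the lists of the mitochondrion, splicing, chromatin, protein folding, translation, the secretory pathway and signalling. For ribosome biogenesis more were higher in 2i/LIF at either threshold. Among 17 genes of the secretory pathway and vacuolar ATPase, 7 rose in 2i/LIF and 13 rose in LIF/serum, with list medians of 0.55 and 0.61. Pdia4, a disulfide isomerase, rose in both media at 0.53 and 0.63, Atp6v1f, a subunit of the vacuolar ATPase, rose in LIF/serum at 0.71, and Rab7, a GTPase of late endosomes, was at 0.63 and 0.34 without passing the threshold. Of 10 signalling genes 3 rose in 2i/LIF and 6 rose in LIF/serum, with none below the band in either medium, so that the shares that rose were near those of all 137 genes. Adipor2, an adiponectin receptor, was at 0.51 and rose by 0.87, above the band in LIF/serum with edgeR but not with DESeq2, and in 1 of the 8 fits without 1 library.

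Among 9 genes of the cytoskeleton and adhesion 4 rose in 2i/LIF and 5 in LIF/serum, and none was below the band. Brk1, a subunit of the WAVE complex, rose at 0.67 and 0.79, and Mtpn, which binds actin capping protein, at 0.82 and 0.62. Ptms, which encodes parathymosin, a nuclear protein kept on this list although it is no cytoskeletal gene, was at 0.77 and 0.65 and did not pass the threshold in either medium. Of 8 metabolic enzymes 3 rose and Bcat1 fell in 2i/LIF, and 5 rose in LIF/serum. Their estimates were the most spread of any list, from -0.55 to 0.89 in 2i/LIF and from -0.40 to 1.32 in LIF/serum. Mthfd2, a mitochondrial enzyme of folate metabolism, rose in both media at 0.61 and 0.90, and Asns and Hibadh belong here.

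The lists with the lowest medians in LIF/serum were those of splicing and mRNA processing and of ribosome biogenesis. Among 15 splicing and mRNA processing genes 1 rose in 2i/LIF and 5 in LIF/serum, and 7 were below the band in LIF/serum against 2 in 2i/LIF, with medians of 0.44 and 0.20. At an unadjusted p of 0.05, 12 were higher in 2i/LIF and 7 in LIF/serum, and DESeq2 called 4 and 6. With centring, Hnrnpa2b1 stayed below the band in both media, and Cnbp and Tra2a did so in LIF/serum, while the other genes of the list lost that place. Cnbp, a zinc finger protein that binds nucleic acids, was at 0.32 and -0.02, and Hnrnpf, a splicing regulator that matches Gm6430 over 52.0% of its transcript, at 0.22 and 0.20. Ybx3, a cold-shock domain protein, was at 0.59 and 0.54 with standard errors of 0.22. Snd1 and Mkrn1 are on this list as well. For 6 genes of ribosome biogenesis the medians were 0.45 and 0.24, and in edgeR's test 2 rose in 2i/LIF and 0 in LIF/serum. At an unadjusted p of 0.05, 6 were higher in 2i/LIF and 3 in LIF/serum, and DESeq2 called 3 and 2. Bms1, a GTPase of the small subunit processome, rose in 2i/LIF at 0.62 and was at 0.34 in LIF/serum (adjusted p = 0.0542), and Nop2, Emg1 and Rbm28 were at 0.43, 0.37 and 0.40 against 0.14, 0.11 and 0.46.

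Of 5 genes of the ribosome and translation 1 rose in 2i/LIF and 2 in LIF/serum. Rpl32, the ribosomal protein with the highest level per kilobase of the 137 genes, had normalized counts of 36164 and 41854 against 54555 and 56515 in 2i/LIF and 35875 and 49638 against 48705 and 60697 in LIF/serum, at log2 fold changes of 0.51 and 0.36 that did not pass the threshold. The groups overlapped in LIF/serum, and the transcript matches Gm4987 over 45.0% of its length. Gars, the glycyl-tRNA synthetase, rose at 0.55 and 0.37, while the mitochondrial translation genes Ptcd3 and Mrpl51 were at 0.47 and 0.34 in 2i/LIF and at 0.04 and 0.12, below the band, in LIF/serum. Mrpl51 lost that place with centring and kept it in 2 of the 8 fits without 1 library. Among 13 mitochondrial genes 3 rose in 2i/LIF and 4 in LIF/serum, and 0 and 5 were below the band. At an unadjusted p of 0.05 all 13 were higher in 2i/LIF and 7 in LIF/serum, and DESeq2 called 9 and 5. Cycs, which encodes cytochrome c, was at 0.49 and rose by 0.64 in LIF/serum, Phb2, Ndufa4 and Ndufa9 were at 0.47, 0.60 and 0.45 in 2i/LIF and at 0.34, 0.26 and 0.35 in LIF/serum, not past the threshold.

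The 16 genes of chromatin and transcription held 4 of the 17 genes below the band in 2i/LIF and 6 of the 35 in LIF/serum, and 2 and 7 of them rose. Mlf2 was at 0.38 and rose by 0.51 in LIF/serum, and Ruvbl1, a helicase of several chromatin complexes that matches Gm5837 over 81.7% of its transcript, was at 0.32 and -0.01. Phc1 was at -0.10 in 2i/LIF and rose by 0.49 in LIF/serum. Of 12 genes of protein folding and the ubiquitin-proteasome system 3 rose in 2i/LIF and 5 in LIF/serum, and Cct7, a subunit of the chaperonin TRiC, was at 0.34 and 0.30. Among 8 genes of DNA replication, repair and mitosis 2 and 5 rose, with Mad2l1, a spindle checkpoint protein, rising by 0.56 and 0.41, and Cdca3 at 0.31 and 0.72, past the threshold in LIF/serum. Of 3 genes of nuclear pore and transport 0 rose in 2i/LIF in edgeR's test and 2 in LIF/serum, where Nup205 was at 0.53 and Tnpo3, which imports splicing factors, at 0.60. The other 31 genes, on no list, had 6 and 16 that rose. In 2i/LIF the nuclear pore genes were at 0.13 for Sec13, 0.39 for Nup205 and 0.73 for Tnpo3, of which 2 were higher at an unadjusted p of 0.05 and DESeq2 called 1.

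**Figure D5:**
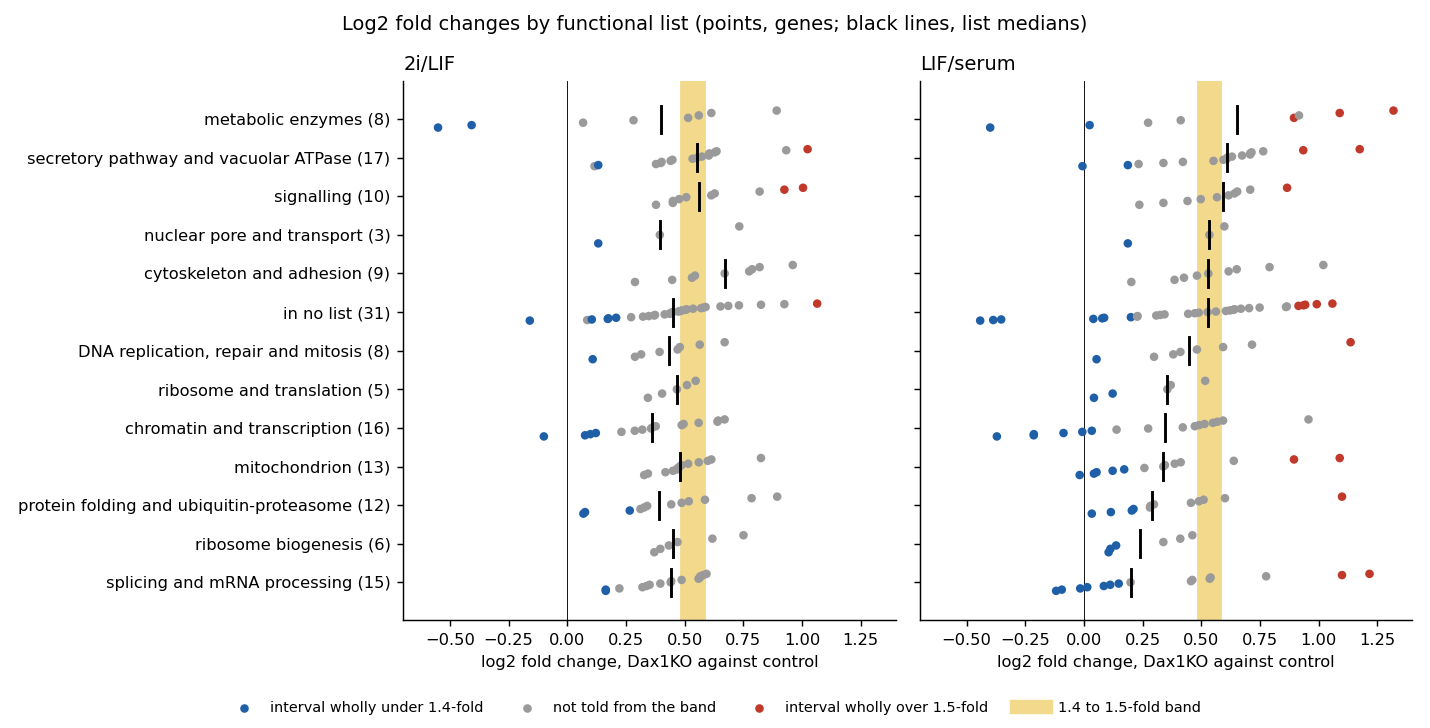
Log2 fold changes of the genes (points) by functional list (y axis, number of genes in parentheses) in each medium (x axis), coloured by place against the 1.4 to 1.5-fold band, with list medians as black lines. The medians run from 0.36 to 0.67 in 2i/LIF and from 0.20 to 0.65 in LIF/serum.

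In bins of 25 Mb along the chromosome the median log2 fold change of the genes lay between 0.43 and 0.53 in 2i/LIF and between 0.33 and 0.55 in LIF/serum, with 5 to 32 genes in each bin, and differences between bins were not tested. In bins of 10 Mb, some with as few as 2 of the genes, the medians ran from 0.29 to 0.57 in 2i/LIF and from 0.20 to 1.13 in LIF/serum. The bin from 60 to 70 Mb was the lowest in both media, with 0.29 and 0.20 over 3 genes, and all 22 chromosome 6 genes tested there had medians of 0.16 and 0.12. All 82 genes tested between 50 and 60 Mb had medians of 0.22 and 0.62. The 900 other chromosome 6 genes tested had medians of 0.42 and 0.53. The log2 fold changes had Spearman correlations with the control level per kilobase of -0.22 (2i/LIF) and -0.05 (LIF/serum) and with exonic length of 0.01 and 0.06, over the 137 genes. Just inside the count minimum were Alms1, Tgoln1 and Bcl2l13, a protein of the outer mitochondrial membrane, with lowest counts of 2011, 2014 and 2038 and log2 fold changes of 0.92, 1.02 and 0.69 in 2i/LIF and 0.70, 0.93 and 0.91 in LIF/serum. Just outside were Sem1, Brpf1 and Ints13, with lowest counts of 1992, 1991 and 1968 and values of 0.59, 0.36 and 0.35, and 0.42, 0.39 and 0.12. A further 123 genes of the chromosome reached the minimum in some but not all libraries, so the rule leaves out genes that were low in any group.

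Promoter sequences from RefSeq (GRCm38.p6) were matched to 116 of the 137 genes. For 75 of them the RefSeq start lay within 50 bases of the annotated gene start. Which start these cells use was not measured. Sequences are shown for genes with different places against the band, to let their starts be read beside the values above. Each run lies just upstream of the gene's start in GENCODE M21, 5′ to 3′ on the gene's strand, with CG dinucleotides in capitals. The windows are chr6:72617001-72617120 for Tgoln1, chr6:125095861-125095980 for Chd4, chr6:37870691-37870810 for Trim24, chr6:145076185-145076277 for Bcat1 and chr6:7693255-7693329 for Asns. The RefSeq starts of Asns and Bcat1 lie 45 and 27 bases downstream of those in GENCODE.
Tgoln1: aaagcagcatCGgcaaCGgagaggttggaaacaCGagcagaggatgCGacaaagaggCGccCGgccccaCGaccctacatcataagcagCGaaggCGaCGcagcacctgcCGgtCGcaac
Chd4: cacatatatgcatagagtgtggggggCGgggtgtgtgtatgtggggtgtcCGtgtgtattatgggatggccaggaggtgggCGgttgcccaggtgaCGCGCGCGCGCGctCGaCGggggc
Trim24: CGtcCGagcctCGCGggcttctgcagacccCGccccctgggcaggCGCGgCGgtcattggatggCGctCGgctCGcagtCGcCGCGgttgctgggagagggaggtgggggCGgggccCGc
Bcat1: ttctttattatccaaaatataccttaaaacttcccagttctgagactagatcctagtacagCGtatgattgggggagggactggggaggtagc
Asns: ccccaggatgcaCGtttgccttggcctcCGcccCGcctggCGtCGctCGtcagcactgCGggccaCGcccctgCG

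Tgoln1, above the band in both media, had 12 CG dinucleotides in its 120 bases, and Chd4 and Trim24, below it in both, had 11 and 16. Bcat1, the gene that fell in 2i/LIF in edgeR's test, had 1 in 93 bases. Over the 250 bases before the start the 116 genes had a median GC content of 59.4% and 17 CG dinucleotides, against 52.4% and 6 for the 32851 promoters of the table. Those promoters were not matched for expression to the 116 genes, which were chosen for high counts. The difference can therefore not be read as a trait of chromosome 6 genes. Genes below the band had medians of 20.5 CG dinucleotides in both media, and genes above it 19 in 2i/LIF and 17.5 in LIF/serum. Genes not told from the band had 16 in both media. Differences between the classes were not tested. The element TGATGAAAC, the nutrient-sensing sequence of the Asns promoter, was searched on both strands of the 300 bases around each start after the values were seen. As the letters are those of the Asns promoter, a match in Asns was given in advance and is no finding. The element was found in 0.247% of all promoters and, among the 116, in Asns alone. There it lay 23 to 15 bases before the RefSeq start and so downstream of the GENCODE start. It is in capitals in this run of chr6:7693213-7693242.
Asns element: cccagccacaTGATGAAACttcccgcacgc

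Other motifs were searched in the same windows on both strands. CCGGAAGT, an ETS site, was in 12.9% of the 116 promoters and 3.89% of all promoters. The shares were 6.03% and 7.15% for the E-box CACGTG, 4.31% and 1.79% for the cyclic AMP response element TGACGTCA, and 5.17% and 13.6% for TATAAA. The ETS site was in 3 of 16 matched genes below the band in 2i/LIF and 5 of 32 in LIF/serum, Pcbp1 and Sec13 among them, and in 2 of 14 above it in LIF/serum, Snd1 and Calu. CCAAT was in 44.8% and 37.4%, and TGATGCAA, a composite ATF4 and C/EBP site, in 0.862% and 0.895%. A match is a description of the letters and not evidence of a bound factor. All promoters were again not matched for expression to the 116 genes, so the shares show no trait particular to these genes.

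Reads shared with other genes are a limit for some of these values. Exons of 62 of the 137 genes overlap another annotated gene, 12 of them over more than 10% of their length, and 7 match another gene over most of their longest transcript. Without the 66 genes with either property, 17 of 71 were called in 2i/LIF and 37 in LIF/serum, the medians were 0.49 and 0.48, and 9 and 17 were below the band with 0 and 7 above. All 4 genes above the band in 2i/LIF were thus among the 66. Other named genes with such overlaps include Calu (Opn1sw, 8.5%), Mkrn1 (Gm10244, 8.2%), Serbp1 (Il12rb2, 7.6%), Tcf7l1 (Gm15401, 4.6%) and Braf (Ndufb2, 1.1%).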

How the data were processed

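Raw counts per gene of 8 bulk RNA-seq libraries were used as deposited by the authors. Per the submitters' processing notes, HISAT2 2.0.4, DESeq2 and mm10 were used upstream, while the counting tool, annotation and strand setting are not given in the sources used here. Identifiers were matched to GENCODE M21 (GRCm38) for 52403 of 52550 genes.

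All libraries were fitted together with 4 group means in edgeR 4.0.16 (R 4.3.3), with TMM scaling and filterByExpr, which kept 20749 genes. Dax1KO was compared with control in each medium, and the difference of the 2 effects was tested, by the quasi-likelihood test with Benjamini-Hochberg adjustment over all genes (residual degrees of freedom 8.04 with the prior). Calls needed an adjusted p of 0.05 and, within a medium, a fold of 1.2. The 2 comparisons share no library but use the same estimate of each gene's spread. Normalized counts are counts over TMM-scaled library size times its mean over libraries. The tests were also run on counts simulated from the fit itself. That is a check of the code and cannot cover differences between cultures or clones.

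The genes, count minimum and functional lists were chosen with earlier results of these data known, and a pattern already seen is no independent support. Named genes were the 8 highest and 8 lowest in each medium, those on the same side of the band in both, those with a called difference, up to 4 per list by level per kilobase, and the 3 nearest the minimum on either side. A few further genes of the band classes were named after their values were seen. Sequence matches came from blastn 2.17.0 at 95% identity or more. Alternatives were DESeq2 1.42.0, other scaling, no filter, separate fits, a replicate block, single libraries left out, other minimums, bands and intervals, and centring on other chromosomes. The values of 1 named gene are not reported here.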

Additional observations from a re-analysis of the deposited data

Results flagged for a closer look

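The effect of Dax1KO differed between the media for 4 of the 137 genes in edgeR's test of the difference itself, LIF/serum minus 2i/LIF on the log2 scale. The difference was 1.04 for Asns, 0.82 for Bcat1, 0.74 for Ncapd2 and -0.93 for Fam136a. Over the alternatives computed, the difference ranged from 0.94 to 1.15 for Asns, from 0.74 to 0.88 for Bcat1, from 0.64 to 0.81 for Ncapd2 and from -0.98 to -0.88 for Fam136a. The adjusted p rose to 0.128, 0.144, 0.181 and 0.107 at most for these genes in the same order, so the direction held in each alternative and the call did not.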

How the results depend on the processing

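Counts of called genes depended on the tool and the filter. In 2i/LIF 73 genes were called with DESeq2 and 3 with no filter on low counts, and the difference between media was called for 11 and 1. With a separate fit for each medium 32 were called in LIF/serum, and 10 in 2i/LIF and 8 in LIF/serum were above the band. The replicate numbers pair libraries by number alone (correlations of their deviations 0.0796 and 0.108), and the fit with a replicate block called 35 and 69 genes and put 7 above the band in 2i/LIF. With a lowest count of 1000, 111 were called in LIF/serum and 7 and 27 were above the band in 2i/LIF and LIF/serum. With 4000, 17 and 34 were called, 11 and 14 were below and 0 and 6 above. Without genes that share sequence, 17 and 37 were called, 9 and 17 were below, 0 and 7 above, the LIF/serum median was 0.48 and 2 differences were called. A band of 1.3 to 1.6-fold gave 7 and 17 below and 1 and 8 above, and 99% intervals 6 and 16 below and 0 and 6 above. Centring, chosen after seeing the data, gave 11 and 15 below, 8 and 22 above, and medians of 0.52 and 0.57. The lowest median over bins of 10 Mb was 0.37 and 0.29 among bins with 5 of the genes or more, and 0.29 and 0.20 over the 3 genes at 60 to 70 Mb, a bin this limit leaves out.

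Leaving out 1 library gave 0 to 43 calls in 2i/LIF, 21 to 56 in LIF/serum and 0 to 2 for the difference, with 7 to 19 and 19 to 35 below the band, 1 to 8 and 5 to 19 above, and medians of 0.42 to 0.52 and 0.39 to 0.50. Of 682 alternative values for named genes past the threshold, 0 turned sign and 216 lost the call. The differences between media were followed here for 11 genes, and not for Snd1 and Calu, whose differences are also given. Of 1393 values not past it, 63 came to pass it and 20 turned sign. Without chromosome 6 in the scaling Cnbp was at 0.0026 and Ruvbl1 at 0.011 in LIF/serum, and with no filter Ruvbl1 was at 0.00658. Leaving out 1 library moved Cops7a from -0.015 to 0.17, Mat2a from -0.066 to 0.19 and Smyd5 from -0.17 to 0.41 in 2i/LIF. In LIF/serum the ranges were -0.048 to 0.089 for Akr1b3, -0.085 to 0.055 for Cnbp, -0.0073 to 0.23 for Emg1, -0.057 to 0.32 for Mrpl51, -0.057 to 0.31 for Nop2, -0.042 to 0.13 for Ptcd3, -0.045 to 0.035 for Ruvbl1, -0.22 to 0.32 for Trim24 and -0.22 to 0.26 for Trnt1. The cause of these changes was not tested.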
